A study of Homo sapiens with 2 samples.

Results

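The SLC25 genes encode the mitochondrial carriers. They were chosen by name: every RefSeq protein-coding gene on chromosomes 1 to 22 whose symbol is SLC25A followed by a number, apart from 1 gene that was not analysed here. This gave 42 of the 19122 protein-coding genes on those chromosomes. Histone H4 acetylated at lysine 5 (H4K5ac), a mark of open and transcribed chromatin, was mapped by chromatin immunoprecipitation and sequencing in FaDu, an established line of human cancer cells from the head and neck. There was 1 library from FaDu cells in normoxia and 1 from FaDu cells in 1% oxygen for 18 h (hypoxia). The series' design text names another acetylated histone residue, and the mark is named here by the labels of the samples. The culture protocol, shared by both libraries, mentions knockdown of METTL4 without tying it to either one. With 1 cell line and 1 library per condition there was no replicate check, so no p-value is given and no difference between the libraries can be set against the spread between cultures.

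Mitochondrial carriers sit in the inner mitochondrial membrane, which is closed to most charged metabolites, and move nucleotides, amino acids, carboxylates, phosphate, iron and cofactors between the cytosol and the matrix. The adenine nucleotide carriers exchange ATP made in the matrix for cytosolic ADP, the aspartate/glutamate carriers pass reducing equivalents into mitochondria, and the uncoupling proteins let protons leak back across the membrane. Low oxygen slows the respiratory chain that these carriers feed and draw on. Active gene starts in most cell types lie in CpG-rich DNA and carry acetylated H4.

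The deposited data were 120033 peaks for normoxia and 258195 for hypoxia, a ratio of 2.15, on build hg38. The number of sequenced reads is not given in the sources used here. This difference in list length touches every count below. Values from a hypoxia list cut to the length of the normoxia list are given for part of the results. These are the family's end, start and body counts, the shared peaks and single genes where stated. They are not given for body peaks by substrate group, for peak numbers by gene length or for peaks at both ends of a gene. Of the epithelial and squamous marker genes, KRT5, KRT14, CDH1 and EPCAM had a gene-end peak in both libraries, while TP63 had one in hypoxia alone. Among markers of other cell types PTPRC (leukocytes) and ALB (hepatocytes) had none, CD3E and PECAM1 had one in hypoxia alone, and COL1A1 had one in both.

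A gene end was called marked when a peak overlapped the 1000 bp on either side of the first or last base of the gene. Of the 42 SLC25 genes, 34 were marked in both libraries, which is 81.0% (95% Clopper-Pearson interval 65.9 to 91.4) against 70.2% of all 19122 genes. SLC25A2, SLC25A31, SLC25A34 and SLC25A47, 4 genes or 9.52% (2.66 to 22.6), were marked in hypoxia alone, against 11.7% of all genes. No SLC25 gene was marked in normoxia alone, which allows a share of up to 8.41%, against 1.09% of all genes. SLC25A18, SLC25A26, SLC25A30 and SLC25A52, again 4 genes, had no gene-end peak, so that 38 of the 42 were marked in 1 library or both, against 83.0% of all genes. The carriers were thus mostly marked in both conditions, with few members whose state differed. The intervals cover counting error only, since genes are not replicates.

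Counting only strong peaks, whose −log10 q (the authors' adjusted p-value on a log scale) reached 10, left 33 members marked in both libraries (60.5% of all genes) and 8 in neither (32.1%). SLC25A48 was the single member with a strong end peak in hypoxia alone (6.82% of all genes), and no member had one in normoxia alone (0.591%). The fold enrichment at the summit, which the authors' peak caller gives for each peak relative to its own library, ran from 2.43 to 10.3 with a median of 6.26 over the strongest end peaks of the 34 members marked in normoxia. In hypoxia it ran from 2.18 to 14.4 with a median of 8.14 over 38 members. Over all marked genes the medians were 5.94 and 7.16. These folds describe peaks within a list, and a higher fold in one library is not read as more acetylation, because the lists were called separately.

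**Figure D1:**
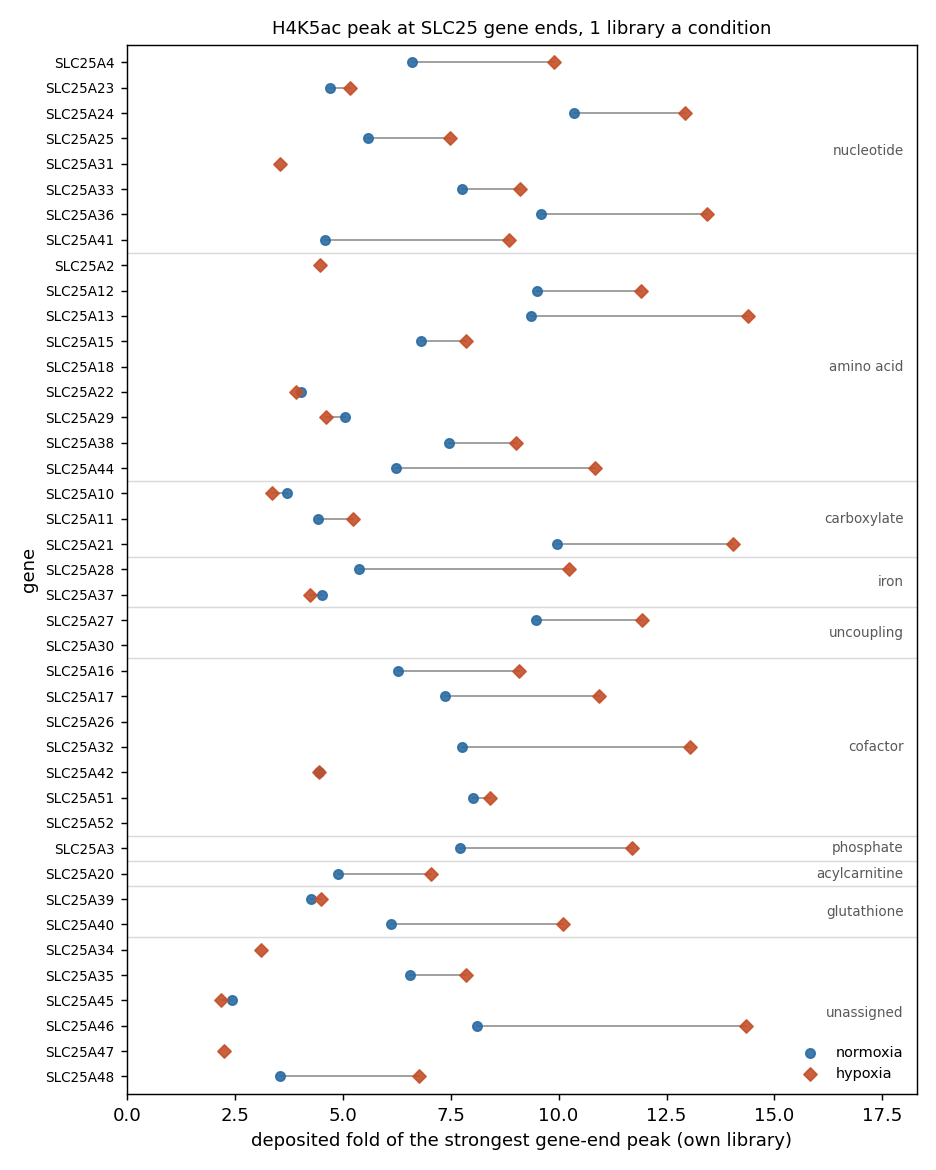
Fold enrichment (authors' values, horizontal axis, no unit) of the strongest gene-end peak of SLC25 genes, by substrate group, in the normoxia and hypoxia lists. SLC25A2, SLC25A31, SLC25A34 and SLC25A47 have a hypoxia point alone, the points of SLC25A42 (4.45 and 4.44) coincide, and the values run from 2.43 to 10.3 in normoxia and from 2.18 to 14.4 in hypoxia.

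Nucleotide carriers were mostly marked in both libraries, as were all coding genes. Of the 8 members, 7 had a gene-end peak in both libraries (70.2% of all genes) and SLC25A31 had one in hypoxia alone (11.7% of all genes). SLC25A24, an ATP-Mg/phosphate carrier, had an end peak of fold 10.3 in normoxia, the highest of the 42 genes there, and 12.9 in hypoxia. SLC25A36, a pyrimidine nucleotide carrier, had 9.59 and 13.4. SLC25A4, the adenine nucleotide carrier of heart and muscle, had 6.59 and 9.88, with −log10 q of 19.6 and 40.7. Marking in both libraries is the common state of coding genes here, so it is not read as a trait of this muscle carrier. The end peaks of SLC25A41 (4.58 and 8.85), another ATP-Mg/phosphate carrier, also overlapped an end window of KHSRP, so they cannot be assigned to either gene. All 3 hypoxia end peaks of SLC25A25 likewise lay in an end window of NAIF1. Without end peaks shared with another coding gene, 5 of the 8 nucleotide carriers were marked in both libraries.

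SLC25A31 encodes the adenine nucleotide carrier of the testis. Its hypoxia peak was 235 bp wide (chr4:127730266-127730500) and its summit lay 34 bp downstream of the annotated start. The peak held 14 overlapping fragments at its summit over a background of 3.24, with fold 3.54 and −log10 q 3.86. That background is the lowest solved for any hypoxia peak of the members, and many of their peaks share it. No normoxia peak lay closer than 7314 bp to the gene. It is therefore a weak peak that exists in 1 list, and it is lost at a −log10 q of 10 and when the hypoxia list is shortened to the length of the normoxia list. The promoter is shown because it is CpG-rich, with 28 CpG sites, and holds the most copies of the searched motifs of any SLC25 start. It is the RefSeq window chr4:127730150-127730449 (GRCh38.p14, plus strand), 5′ to 3′, with capitals at matches to ACGTG, the core of the hypoxia response element, or TGCGCA, the core of the NRF1 site, on either strand.
SLC25A31: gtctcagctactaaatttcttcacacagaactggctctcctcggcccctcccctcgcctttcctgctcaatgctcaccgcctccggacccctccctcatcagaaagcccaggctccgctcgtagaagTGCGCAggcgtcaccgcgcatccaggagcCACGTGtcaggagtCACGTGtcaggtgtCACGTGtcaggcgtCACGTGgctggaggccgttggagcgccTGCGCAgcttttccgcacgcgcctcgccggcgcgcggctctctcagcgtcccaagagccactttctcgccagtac

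In that window CACGTG occurs 4 times. It reads the same on both strands, so each copy counts as an ACGTG match on each strand, which gives 8, and TGCGCA occurs 2 times. A match is a description of the letters and not a bound site.

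Amino acid carriers were 9 members, of which 7 were marked in both libraries (70.2% of all genes). SLC25A13 and SLC25A12, the aspartate/glutamate carriers of the malate-aspartate shuttle, had the highest gene-end folds of the group. SLC25A13 had 9.35 in normoxia and 14.4 in hypoxia, the highest gene-end fold of the 42 genes in the hypoxia list, and SLC25A12 had 9.51 and 11.9. SLC25A22, a glutamate carrier, had 4.03 and 3.92, the lowest hypoxia fold of the group, and its end peaks also lay in end windows of PANO1 and PIDD1, so they cannot be assigned to 1 gene.

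SLC25A2, an ornithine carrier of short gene length (chr5:141302635-141304049), was marked in hypoxia alone. Its peak (chr5:141303535-141304357) had fold 4.48, −log10 q 6.59 and 18 fragments at the summit, and the nearest normoxia peak lay 16248 bp away. The peak covers 1 end of the gene and reaches the window of the other. SLC25A2 kept this hypoxia-only state when the lists were made equal in length, as did SLC25A34. These were 2 of the 42 members, and 5.72% of all genes had that state with equal lists.

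SLC25A18, the second glutamate carrier, had no peak at either end in either library. Its only peak in each list lay within the gene, at chr22:17576760-17577242 in normoxia (fold 4.02, 42 fragments) and at chr22:17576763-17577356 in hypoxia (fold 6.15, 79 fragments). These overlapped, so the gene had 1 site in both conditions and an unmarked start. The start is shown because it is poor in CpG, with 3 sites in the 300 bases. The window is chr22:17563248-17563547 (RefSeq, GRCh38.p14, plus strand), and it has no capitals because neither motif was found.
SLC25A18: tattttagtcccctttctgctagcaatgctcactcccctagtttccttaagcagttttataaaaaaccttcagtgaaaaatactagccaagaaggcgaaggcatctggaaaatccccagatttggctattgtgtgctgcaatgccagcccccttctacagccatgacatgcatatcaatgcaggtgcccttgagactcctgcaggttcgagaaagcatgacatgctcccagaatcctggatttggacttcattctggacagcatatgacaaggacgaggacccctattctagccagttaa

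SLC25A29, a carrier of basic amino acids, had its highest folds inside the gene and not at its ends. Its end peaks had folds of 5.05 and 4.62, whereas a peak in the gene body had 9.67 in normoxia (−log10 q 113.8, 189 fragments) and 10.7 in hypoxia (−log10 q 189.5, 296 fragments). It was chosen after its values were seen.

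Carboxylate carriers were 3 members, each marked in both libraries (70.2% of all genes). SLC25A10, the dicarboxylate carrier, had folds of 3.71 and 3.35. SLC25A11, the oxoglutarate/malate carrier of the malate-aspartate shuttle, had 4.42 and 5.23, and all its end peaks also touched an end window of RNF167. SLC25A21, the oxodicarboxylate carrier, had 9.97 and 14.05, with −log10 q of 70.3 and 140.9. So the group held both low and high folds for the family.

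Iron carriers were the mitoferrins SLC25A37 and SLC25A28, which bring iron into the matrix for heme and iron-sulfur cluster synthesis. SLC25A37 (mitoferrin 1, the erythroid form) had an end peak of fold 4.53 in normoxia and 4.24 in hypoxia, with −log10 q of 24.4 and 20.0. SLC25A28 (mitoferrin 2, the widely expressed form) had 5.38 and 10.2 at an end of the gene span that it shares with ENTPD7. RefSeq places the annotated start of SLC25A28 38847 bp inside that span. Within 1000 bp of this start both libraries had a peak, at chr10:99620771-99622271 in normoxia (fold 7.18, 145 fragments) and chr10:99620763-99621739 in hypoxia (fold 9.70, 223 fragments). The summits lay at -787 bp and -791 bp from the start, where negative values are upstream, on the side of the divergent transcript SLC25A28-DT. Both mitoferrins were thus marked at an end in both conditions, but only 1 stayed so once peaks shared with other genes were left out. A second, lower peak lay downstream of the start, with its summit at 292 bp in normoxia (fold 3.78) and 354 bp in hypoxia (fold 2.98). The SLC25A28 start window, shown because it lies between these peaks, is chr10:99620390-99620689 (RefSeq, GRCh38.p14, minus strand) with 24 CpG sites and no match to either motif.
SLC25A28: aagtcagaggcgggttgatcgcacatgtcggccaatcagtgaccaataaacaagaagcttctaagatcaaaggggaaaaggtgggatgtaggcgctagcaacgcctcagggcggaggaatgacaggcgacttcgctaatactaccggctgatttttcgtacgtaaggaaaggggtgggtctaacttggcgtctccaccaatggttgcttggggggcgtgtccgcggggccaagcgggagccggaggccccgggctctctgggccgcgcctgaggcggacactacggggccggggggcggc

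Uncoupling proteins with an SLC25 symbol were SLC25A27 and SLC25A30. SLC25A27 (UCP4, the neuronal form) had folds of 9.48 and 11.9 at an end shared with CYP39A1, and without shared peaks it had none. SLC25A30 had no end peak in either library. Its gene body held 2 normoxia and 4 hypoxia peaks, of which the strongest were at chr13:45417069-45418581 (fold 4.61, −log10 q 13.5) and chr13:45417722-45418782 (fold 6.65, −log10 q 32.9). Both reached within 1000 bp of the annotated start of the antisense transcript SLC25A30-AS1. Of the classical uncoupling proteins outside the symbol rule, UCP2 was marked in both libraries (6.85 and 8.31), UCP1, the brown-fat form, in hypoxia alone (5.90, −log10 q 11.5), and UCP3, the muscle form, in neither. Marking of the uncoupling proteins therefore ran from none to both, and the 2 SLC25 members give no group pattern.

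Cofactor carriers were 8 members, with 6 marked in both libraries (70.2% of all genes) and SLC25A26 and SLC25A52 in neither. SLC25A32, which carries folate and FAD, had the highest gene-end fold of the group in hypoxia, 13.04 against 7.76 in normoxia, at an end shared with DCAF13. SLC25A51, the mitochondrial NAD carrier, had the highest gene-end fold in normoxia, 8.02, and 8.42 in hypoxia. SLC25A42, a coenzyme A carrier, had 4.45 and 4.44. SLC25A52, a close copy of SLC25A51, had no peak at its ends or inside the gene, the only such member, and the nearest peaks of the lists lay 34847 bp and 34883 bp away. How reads that match more than 1 place were treated is not given in the sources at hand, so SLC25A51 and SLC25A52 are uncertain here, as may be the 10 members with numbered pseudogenes in the annotation.

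SLC25A26 carries S-adenosylmethionine, the methyl donor, into mitochondria. It had no peak at the ends of its 245 kb span (chr3:66133610-66378927), but its 3 annotated starts lie 87132 to 87391 bp inside it. In each library a single peak lay within 1000 bp of all 3 and covered the innermost. In normoxia it was chr3:66220909-66221584 with fold 11.6, −log10 q 58.1 and 82 fragments over a background of 6.15. In hypoxia it was chr3:66220892-66221395 with fold 21.6, −log10 q 151.4 and 156 fragments over a background of 6.26. Among all genes with a start peak, 158 of 11077 in normoxia and 9 of 12408 in hypoxia had a fold as high or higher, SLC25A26 included, so SLC25A26 had one of the highest start folds in the hypoxia list although the gene-end rule counts it as unmarked. The innermost start, with 27 CpG sites, is shown because the summits lay 144 bp and 132 bp downstream of it. The window is chr3:66220751-66221050 (RefSeq, GRCh38.p14, plus strand), with capitals at the ACGTG matches, 5 over both strands.
SLC25A26: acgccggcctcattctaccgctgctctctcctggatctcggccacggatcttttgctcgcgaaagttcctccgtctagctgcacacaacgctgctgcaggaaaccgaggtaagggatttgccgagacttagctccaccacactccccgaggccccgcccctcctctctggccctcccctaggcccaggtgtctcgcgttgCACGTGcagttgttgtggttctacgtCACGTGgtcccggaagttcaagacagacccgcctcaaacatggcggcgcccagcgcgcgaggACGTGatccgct

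The remaining transport groups were small. SLC25A3, the phosphate carrier needed for ATP synthesis, had folds of 7.71 and 11.7, and SLC25A20, the carnitine/acylcarnitine carrier of fatty acid oxidation, had 4.90 and 7.05. Of the glutathione carriers, SLC25A40 had 6.11 and 10.1, at an end shared with DBF4, and SLC25A39 had 4.27 and 4.49. All 4 genes were marked in both libraries (70.2% of all genes). Without the peaks shared with DBF4, SLC25A40 had no end peak in either library.

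Of 6 members placed in no substrate group, 4 were marked in both libraries (70.2% of all genes) and SLC25A34 and SLC25A47 in hypoxia alone (11.7%). SLC25A46, an outer-membrane member tied to mitochondrial shape, had 8.11 and 14.3, the highest folds of these 6, at an end shared with TMEM232. SLC25A45 had the lowest, 2.43 and 2.18, from tall peaks of 164 and 185 fragments on a high local background of 67.0 and 84.5. Its low fold thus goes with a high background rather than with few fragments. The hypoxia peak of SLC25A34 lay past the far end of the gene (chr1:15741641-15741896, fold 3.10), 5460 bp from its start and in an end window of TMEM82, so the start of SLC25A34 was unmarked in both conditions.

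SLC25A47, a carrier known from liver, had a hypoxia peak (chr14:100323106-100323722) of fold 2.24 and −log10 q 3.73, with 36 fragments over a background of 15.5. Its summit lay at -133 bp, just upstream of the start. Like that of SLC25A31, it is lost when the lists are made equal in length. The window, chr14:100323089-100323388 (RefSeq, GRCh38.p14, plus strand), is shown for contrast with SLC25A31, since it has 7 CpG sites and no match to either motif.
SLC25A47: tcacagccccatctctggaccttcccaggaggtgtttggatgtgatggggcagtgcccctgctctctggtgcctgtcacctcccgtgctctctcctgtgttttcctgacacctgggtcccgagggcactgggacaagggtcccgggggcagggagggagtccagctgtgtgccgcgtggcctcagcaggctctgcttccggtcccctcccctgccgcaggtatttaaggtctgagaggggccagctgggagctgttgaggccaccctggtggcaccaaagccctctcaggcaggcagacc

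Annotated starts gave a narrower measure. RefSeq promoter windows matched 34 of the 42 members, with 44 starts, and 8 members, SLC25A2, SLC25A30 and SLC25A37 among them, had no entry. A peak within 1000 bp of a start was present in both libraries for 29 of the 34 members, or 85.3% (68.9 to 95.0), against 72.6% of 15100 genes. SLC25A31 and SLC25A47, 2 members, had one in hypoxia alone (9.58% of genes), none had one in normoxia alone (0.768%), and SLC25A18, SLC25A34 and SLC25A52, 3 members, had none (17.1%). With lists of equal length, and with strong peaks alone, 0 members had a start peak in hypoxia alone. Of 12 starts that lie more than 1000 bp inside the gene span, in 7 members, 10 were marked in both libraries. The inner starts of SLC25A22 shared their strongest peak, as did those of SLC25A26 and of SLC25A45, so the 10 are not separate sites. The share of inner starts marked over all genes was not counted. An inner start of SLC25A24 had a peak in hypoxia alone (fold 3.77, −log10 q 4.50), and an inner start of SLC25A25, 23223 bp inside, had none. A further SLC25A25 start, 30275 bp inside, had folds of 4.58 and 4.83, so starts of 1 gene differed in their marking.

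The position of the mark around the start was stable for most carriers. Over the 29 members with a start peak in both libraries, the summit of the strongest peak lay a median of 174 bp downstream of the start in normoxia and 169 bp in hypoxia. It was downstream in 18 members in normoxia and in 20 in hypoxia. Over all 10961 genes with a start peak in both libraries it was downstream in 67.2% and 67.5%, with medians of 174 bp and 158 bp, so the carriers were near the rest of the genome. The median size of the shift between libraries was 29 bp, and 22 members shifted by at most 100 bp. SLC25A40, SLC25A42 and SLC25A46, 3 members, differed by more than 500 bp, each with the strongest summit upstream in normoxia and downstream in hypoxia. SLC25A40 and SLC25A42 had a peak on either side of the start in both libraries, and which of them was the stronger changed. The downstream summit of SLC25A40 was at 388 bp in normoxia and 408 bp in hypoxia, and that of SLC25A42 at 119 bp and 153 bp. SLC25A46 had 1 wide start peak in each library, with its summit at -324 bp and 221 bp. Start peaks were wider in normoxia for 21 members, with medians of 983 bp and 885 bp. Peaks of the whole hypoxia list are also narrower (median 294 bp) than those of the normoxia list (356 bp).

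**Figure D2:**
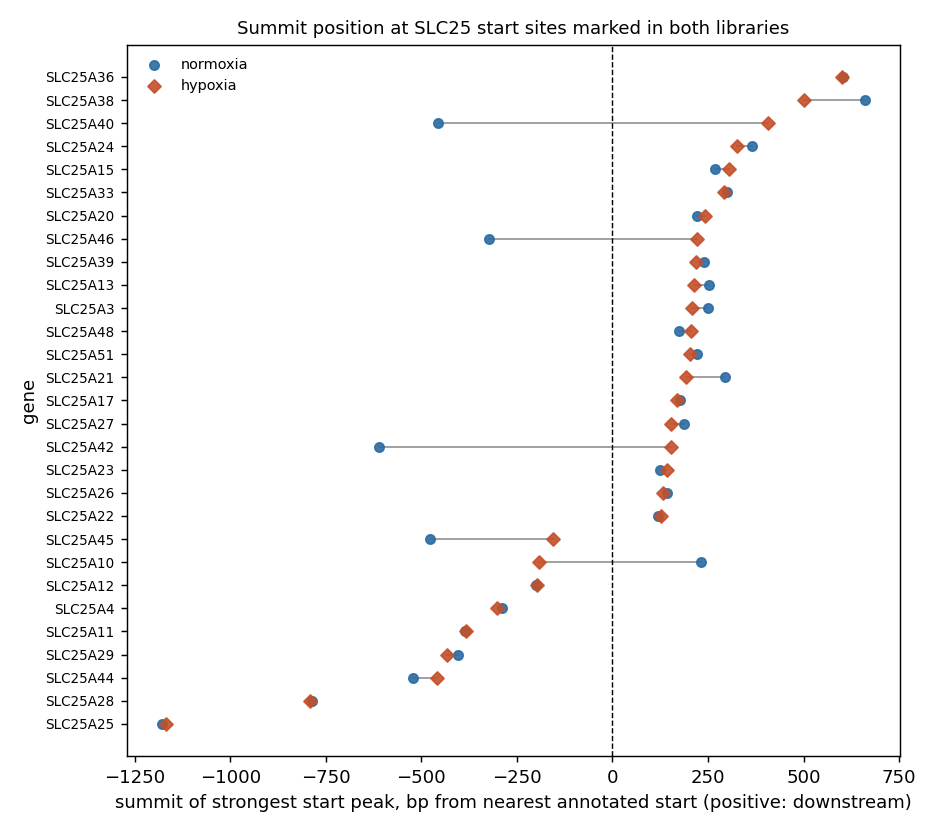
Position of the strongest start peak's summit relative to the annotated start (bp, downstream positive) in normoxia and hypoxia, for the 29 SLC25 genes with a start peak in both libraries. In 22 members the positions are within 100 bp; SLC25A40, SLC25A42 and SLC25A46 differ by more than 500 bp, the first 2 because another of their peaks is the strongest.

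Gene-body peaks, those inside the gene and outside both end windows, numbered 103 in normoxia and 230 in hypoxia over the 42 members, a ratio of 2.23 (95% interval 1.76 to 2.85, counting error only). Over all genes the ratio was 2.28, close to the 2.15 of the lists themselves. End peaks of the members numbered 60 and 66, a ratio of 1.10 (0.764 to 1.59), against 1.27 over all genes. Of the 42 members, 23 had more body peaks in hypoxia (58.0% of all genes did) and 14 had none (29.8% of all genes). SLC25A36 alone had more in normoxia (4.72% of all genes), and SLC25A18, SLC25A25, SLC25A44 and SLC25A45, 4 members, had equal numbers (7.44%). Among the 28 members with any body peak, 82.1% had more in hypoxia, against 82.7% of all such genes, of which 6.72% had more in normoxia and 10.6% equal numbers. The extra hypoxia peaks of the carriers thus lay inside the genes more than at their ends, as over all genes. When only the 120033 hypoxia peaks of highest rank were kept, the members had 89 body peaks in hypoxia and the ratio was 0.864, against 0.983 over all genes, so the direction depends on how many peaks are counted.

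By substrate group the body ratio was 1.35 for the nucleotide carriers (17 and 23 peaks, interval 0.692 to 2.70). It was 2.09 for the amino acid carriers (23 and 48, 1.24 to 3.59) and 1.55 for the carboxylate carriers (31 and 48, 0.966 to 2.52). Iron carriers had 7 and 15 peaks, a ratio of 2.14 (0.822 to 6.21). The uncoupling members had 2 and 4 peaks, a ratio of 2.00 (0.287 to 22.1). Cofactor carriers had 13 and 41 peaks, 3.15 (1.66 to 6.41). The members in no substrate group had 9 and 41, 4.56 (2.18 to 10.7), of which SLC25A48 gave 8 and 40. The intervals of all these groups overlap one another, and differences between groups were not tested. The group ratios were not recomputed with lists of equal length. All the carboxylate body peaks were in SLC25A21.

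**Figure D3:**
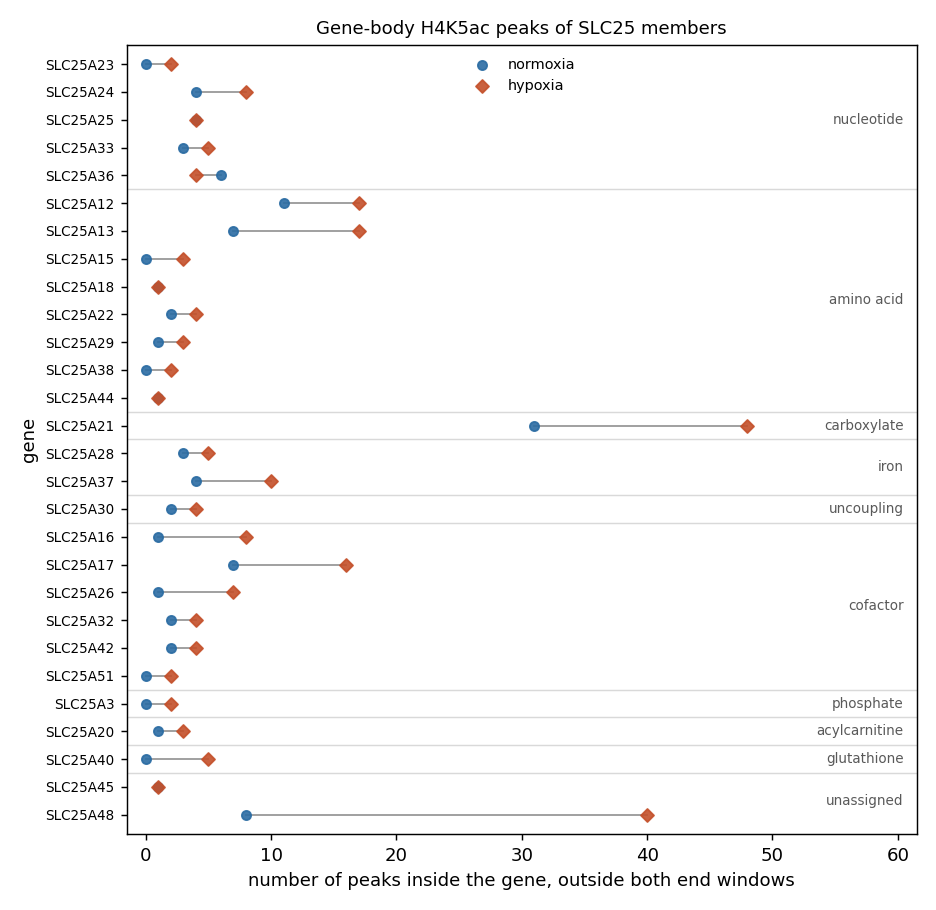
Number of gene-body peaks (horizontal axis) of the 28 SLC25 genes with any, by substrate group, in normoxia and hypoxia. SLC25A48 goes from 8 to 40 and SLC25A21 from 31 to 48, while SLC25A36 is the only gene with more in normoxia.

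SLC25A48, a carrier linked to choline, held the largest difference, with 8 body peaks in normoxia and 40 in hypoxia along its 309 kb (chr5:135579172-135888637). Among genes with at least 8 normoxia body peaks, 34 of 2074, or 1.64%, had at least 5 times as many in hypoxia (a rule set after the SLC25A48 values were seen). The 500 kb on either side of the gene held 35 and 23 peaks in normoxia and 87 and 47 in hypoxia, a ratio of 2.31, against 5.00 inside it. Of its 40 hypoxia peaks 6 overlapped a normoxia peak, 6 were strong and the median fold was 3.25, so most of its hypoxia peaks were weak. With lists of equal length SLC25A48 had 12 hypoxia body peaks, and with strong peaks alone it had 2 and 6. Without SLC25A48 the members had 95 and 190 body peaks, a ratio of 2.00.

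The ends of SLC25A48 differed as well. Its outer start, shared with CXCL14, had folds of 3.54 (−log10 q 4.78) and 5.38 (18.4), and the far end had a peak in hypoxia alone (chr5:135887552-135887957, fold 6.76, −log10 q 18.9). A second annotated start, 255491 bp inside the gene, had higher folds than the outer one in both lists, 6.19 (41 fragments, chr5:135834593-135835201) and 7.84 (63 fragments, chr5:135834669-135835537). It is shown because it is the strongest site of the gene, with 18 CpG sites and no match to either motif, in the window chr5:135834413-135834712 (RefSeq, GRCh38.p14, plus strand).
SLC25A48: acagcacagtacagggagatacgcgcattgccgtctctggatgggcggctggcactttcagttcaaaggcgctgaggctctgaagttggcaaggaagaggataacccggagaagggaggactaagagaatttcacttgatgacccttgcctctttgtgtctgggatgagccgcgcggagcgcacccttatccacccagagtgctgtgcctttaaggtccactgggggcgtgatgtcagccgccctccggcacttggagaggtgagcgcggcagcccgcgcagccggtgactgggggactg

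SLC25A21 had the most body peaks, 31 and 48 over 495 kb, of which 18 in normoxia and 20 in hypoxia overlapped the other list. Its tallest body site had a fold of 10.9 in normoxia (chr14:36982382-36982906, −log10 q 57.5) and 15.6 in hypoxia (chr14:36982412-36982928, −log10 q 86.5), both above the folds at its own start. SLC25A21 thus kept a tall inner site in both conditions while many of its weaker peaks did not overlap. The ratio of its body peaks, 1.55, was near that of its 500 kb flanks, 1.46. SLC25A13 had 7 and 17 body peaks with 1 of them shared, and SLC25A17, the peroxisomal cofactor carrier, had 7 and 16 with 6 shared. SLC25A36 had 6 and 4, whereas its flanks had a ratio of 2.24, and 1 hypoxia peak (chr3:140951533-140952420), the only strong one of the 10, spanned 2 of the 6 normoxia peaks.

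**Figure D4:**
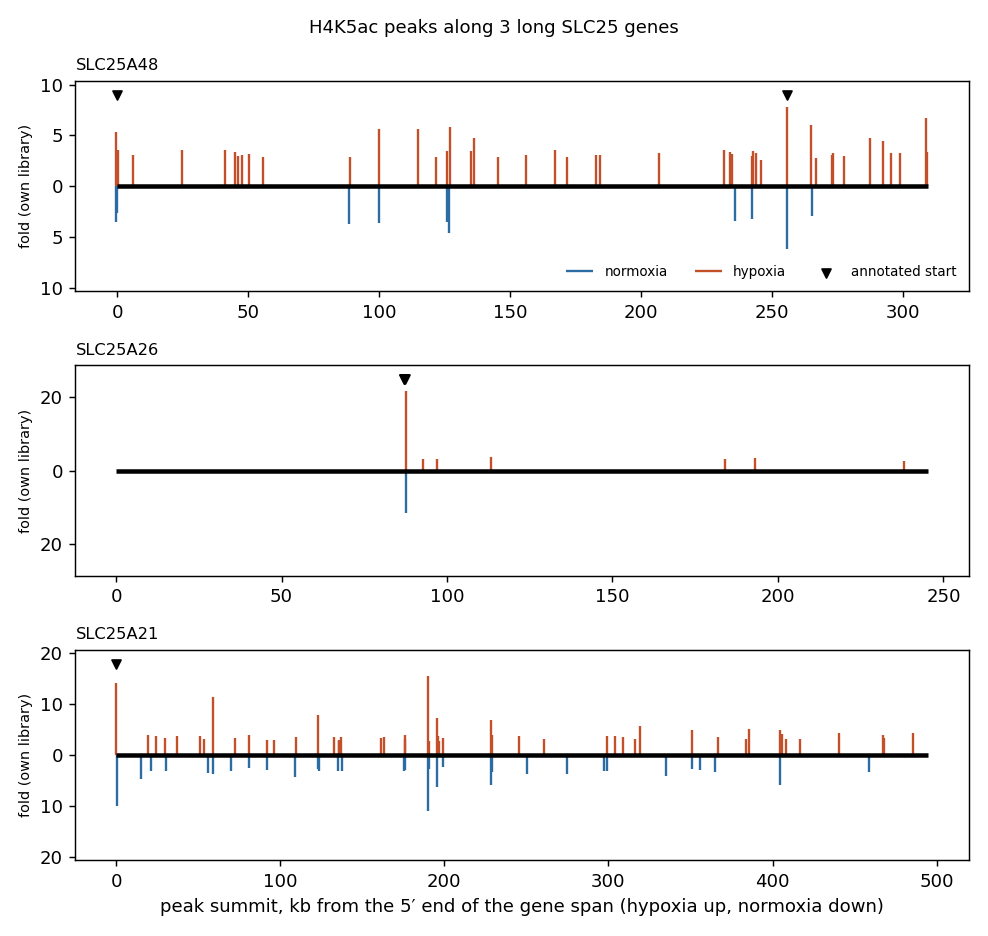
Peaks along SLC25A48, SLC25A26 and SLC25A21, by distance of the summit from the 5′ end of the gene span (kb), with the authors' fold upward for hypoxia and downward for normoxia and triangles at annotated starts. SLC25A26 is marked at its inner starts (11.6 and 21.6) and not at its ends, and SLC25A48 has 8 normoxia and 40 hypoxia body peaks.

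Length matters for such counts. Per 100 kb, SLC25A48 had 2.60 normoxia and 13.01 hypoxia body peaks, SLC25A12 10.1 and 15.6, SLC25A21 6.29 and 9.74, SLC25A13 3.50 and 8.51, and SLC25A26 0.411 and 2.88. Over all 3210 genes of at least 100 kb the values were 4.12 and 9.40. SLC25A26 was therefore sparse for its length in both libraries, and SLC25A12 dense in both.

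End peaks were mostly the same sites in both libraries, while most of the normoxia body peaks and a minority of the hypoxia body peaks overlapped the other list. Of the members' normoxia end peaks 57 of 60, or 95.0% (86.1 to 99.0), overlapped a hypoxia peak, and of their hypoxia end peaks 56 of 66, or 84.8% (73.9 to 92.5), overlapped a normoxia peak. Of the body peaks 59 of 103 in normoxia, 57.3% (47.2 to 67.0), and 64 of 230 in hypoxia, 27.8% (22.1 to 34.1), did so. Over all genes these shares were 91.8%, 72.8%, 64.0% and 28.8% in the same order. Ends and bodies together, 40.5% of the members' hypoxia peaks and 71.2% of their normoxia peaks overlapped the other list. With lists of equal length the shares were 67.3% and 61.3%, and with strong peaks alone 79.3% and 94.0%, so how much was shared depends on how many peaks are counted. Body peaks were also narrower, with medians of 326 bp and 281.5 bp against 783.5 bp and 687.5 bp at the ends. The share that was strong was 80.0% and 77.3% at the ends and 18.4% and 13.5% in the bodies, so most body peaks of the carriers were weak.

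CpG content went with marking among the carriers as among all coding genes. The 37 SLC25 start windows marked in both libraries had 5 to 48 CpG sites with a median of 27.0, and the 7 windows without a normoxia peak had 3 to 28 with a median of 10.0. Over all coding genes the medians were 27 for windows marked in both, 9 for hypoxia alone and 4 for neither. SLC25A31 (28 sites) and SLC25A52 (20 sites) were CpG-rich starts without a normoxia peak. The ACGTG core, searched on both strands, was found in 15 of the 44 SLC25 windows (34.1%), against 22.9% of 21155 windows of coding genes, and TGCGCA in 5 (11.4%) against 9.68%. Windows of the same gene overlap in part, so these are not independent counts.

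**Figure D5:**
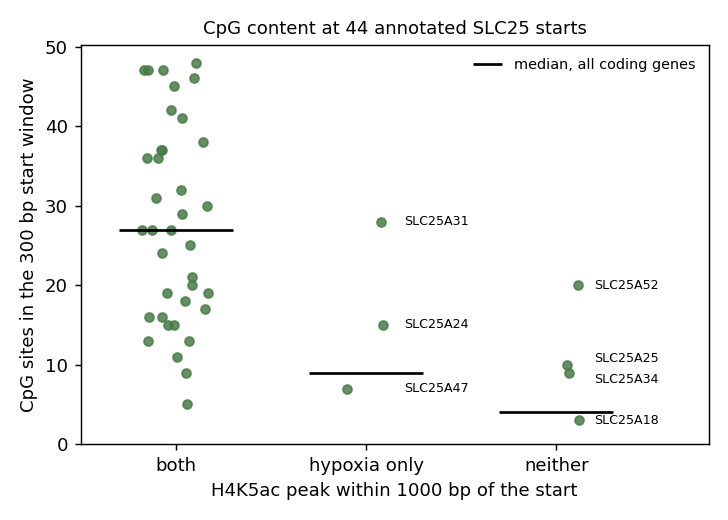
CpG sites in the 300 bp window of each of 44 annotated SLC25 starts, by whether a peak lay within 1000 bp in both libraries, in hypoxia alone or in neither, with the median over all coding genes as a line. Starts marked in both have 5 to 48 sites, and SLC25A31 and SLC25A52 are CpG-rich starts without a normoxia peak.

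For comparison, 27 other genes of mitochondrial transport were listed: the uncoupling proteins UCP1 to UCP3, the pyruvate carriers, sideroflexins, the channel proteins VDAC1 to VDAC3 and parts of the import machinery that inserts carriers into the inner membrane. Of these 25 were marked at a gene end in both libraries (70.2% of all genes were), UCP1 in hypoxia alone (11.7% of all genes) and UCP3 in neither. MTCH2, an outer-membrane insertase of the SLC25 fold, had 8.74 and 13.2, and MPC1, a subunit of the mitochondrial pyruvate carrier, had 7.72 and 8.56. TIMM22, the channel of the carrier insertion complex, had 7.86 and 8.71. The listed import genes were thus marked in both conditions, which is the most common state among carriers and all genes alike. SFXN5, a sideroflexin, had 6 and 25 body peaks, and VDAC1 had 12 and 20.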

How the data were processed

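H4K5ac ChIP-seq gave 1 normoxia and 1 hypoxia library of FaDu cells. Per the labels' protocols, reads were single-end, 75 bp long. A separate peak list was deposited by the authors for each library. The submitters' processing notes name hg38, MACS2 and SICER; versions, settings and the use of a control are not given in the sources at hand. For every peak the authors deposited a score, a fold enrichment at the summit (a ratio), −log10 p and −log10 q (p- and q-values on a log scale) and a summit offset. The score was 10 times −log10 p without its decimals for 100.0% of normoxia and 99.998% of hypoxia peaks, and 144 normoxia and 29 hypoxia peaks had q above 0.05.

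Gene spans and promoter windows came from RefSeq (GRCh38.p14). Peaks were assigned by an overlap of at least 1 bp with windows of 1000 bp around gene ends or annotated starts, or with the gene body, using Python 3.11.15, numpy 2.4.6, pandas 2.3.3 and scipy 1.17.1. Fragment numbers and local backgrounds were solved from the deposited fold and p-value, assuming a pseudocount of 1 and a Poisson p-value. All 561 member peak rows gave whole fragments within 0.02. Intervals are 95% Clopper-Pearson and cover counting error only. The script was tested on simulated data. Alternatives were other windows, strong peaks only (−log10 q from 10), a hypoxia list cut to 120033 peaks, a summit rule and a 50% overlap. Members, substrate groups, comparison genes and motifs were chosen with earlier results of these data known. Named were all members of the iron, uncoupling and carboxylate groups, members marked in 1 library or neither, the extreme folds of the other groups and the largest differences in body peaks; others were chosen after their values were seen. Values of 1 member, which enters the counts, are not reported here.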

Additional observations from a re-analysis of the deposited data

How the results depend on the processing

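No paired analysis was possible because each condition had 1 library, and leaving out a library was likewise not possible. The count of 34 SLC25 genes marked at an end in both libraries was 33 or 34 under the other windows, the strong-peak rule, equal lists and the summit rule, and 25 when end peaks shared with another coding gene were left out (an alternative chosen after seeing the data). That last rule left 5 of 7 nucleotide, 6 of 7 amino acid and 2 of 3 carboxylate carriers marked in both libraries. It left 1 of 2 iron carriers and 0 of 1 uncoupling members. The share of all genes that stay marked under that rule was not counted, so these losses cannot be set against the genome. Genes marked at an end in hypoxia alone, 4, were 1 with strong peaks, those of −log10 q from 10 (SLC25A48), and 2 with equal lists (SLC25A2 and SLC25A34). Over all genes the hypoxia-only shares were 6.82% with strong peaks and 5.72% with equal lists. Genes marked in normoxia alone, 0, were 1 under the summit rule (SLC25A46) and 1 without shared end peaks (SLC25A25). Starts marked in hypoxia alone, 2, were 0 with strong peaks and 0 with equal lists.

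The body-peak ratio, 2.23, was 1.63 with strong peaks and reversed to 0.864 with equal lists, where fewer hypoxia peaks are counted by construction. The share of hypoxia peaks that overlapped a normoxia peak, 40.5%, was 79.3% with strong peaks and 67.3% with equal lists. For the normoxia peaks the share, 71.2%, was 94.0% and 61.3%. Of the 47 main alternatives, 35 were classed as leaving the value much the same, 11 as moving it and 1 as reversing it. The 35 include the fall from 34 to 25 members marked at an end in both libraries. That class therefore does not mean that a value stayed within its counting interval. The cause of the changes was not tested. Read depth is unknown, and the SLC25A31 peak rests on 14 fragments.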

Other observations

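Peaks at both ends of a gene were found for 7 of the 42 members in normoxia (16.7%, against 10.8% of all genes) and 10 in hypoxia (23.8%, against 21.7% of all genes), the longer list. SLC25A3, SLC25A15, SLC25A32, SLC25A35 and SLC25A44 were among those with them in both libraries. SLC25A10 had them in normoxia alone, but only by the edge of the 1000 bp window. The peak nearest its far end lay 998 bp away in normoxia and 1069 bp away in hypoxia, and that normoxia peak overlapped a hypoxia peak. SLC25A2, SLC25A16, SLC25A37 and SLC25A48 had them in hypoxia alone. For SLC25A2, a gene of 1415 bp, this was 1 peak that fell in the windows of both ends. For SLC25A16, a coenzyme A carrier, the additional hypoxia peak had fold 3.04 and −log10 q 3.18, and for SLC25A37 it had fold 3.41 and −log10 q 3.85.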
